A study of Oncorhynchus mykiss with 27 samples.

Results

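Transcripts of 5 genes of the cell division cycle were followed in rainbow trout testis explants: cyclin E1 (*ccne1*, clone tcad0007.n.01), the replication licensing factor *mcm7* (tcay0003.a.01), the transcription factor *e2f4* (tcay0028.g.07), the inhibitor of growth *ing4* (tcag0001.d.09) and cyclin G1 (*ccng1*, tcbk0016.j.18). They were chosen by name from the annotated clones of the study and are 5 of the 9024 clones on the array. Testes came from an all-male population, and pieces were cultured for 96 h with Fsh at 500 ng/mL after a 1 h pre-incubation with trilostane at 10 µg/mL (Fsh+Tri), with Fsh alone (Fsh), with trilostane alone (Tri) or with no added substance (Ctrl), on 6 arrays each, and 3 arrays hold uncultured tissue of day 0 (T0). Since the tissue of every fish went into 1 pool before culture, the cultured replicates are wells of that pool. Their p-values cover the variation among wells and their arrays alone, and not that among fish. The paper does not state how the 3 T0 replicates were taken, and p-values against T0 rest on these as well. All 5 stand in the list of clones that the study selected on these same arrays for their response to Fsh, so that a difference with Fsh is not independent evidence for any of them. The Ctrl and Tri arrays took part in that selection. Comparisons of Ctrl or Tri with each other or with T0 are therefore not free of it either.

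Cells enter division when cyclin E, bound to its kinase, drives the passage from the gap phase G1 into DNA synthesis. The Mcm proteins form the helicase that opens DNA at replication origins, and E2f factors switch the genes of DNA replication on or off. In mammals E2f4 acts mostly as a repressor in resting cells, Ing4 reads methylated histones within an acetyltransferase complex and restrains growth, and cyclin G1 is induced by DNA damage. In the fish testis, spermatogonia are the main dividing cells, Sertoli cells also divide, and Fsh is a pituitary hormone known to act on both Sertoli and Leydig cells. Trilostane inhibits the hydroxysteroid dehydrogenase needed to make Δ4 steroids, the androgens among them, and the study used it to ask whether Fsh acts through steroids.

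Each array is a nylon membrane with spotted cDNA, and the values are the log2 signals that the authors corrected for the amount of spotted cDNA and quantile normalized. Values of different clones are not comparable as levels, so differences between treatments are given for 1 clone at a time. The exception is the summed signal of cell type clones, which weighs the brightest spots most. A difference of 1 on the log2 scale is a doubling. Arrays held between 8310 and 9133 values, and 4565 clones were tested over the 24 cultured arrays with limma. A clone is called where its p, adjusted over all clones tested by Benjamini-Hochberg, is under 0.05. All 5 clones passed the filter on low values, which asked that at least 1 treatment mean reach the overall median. The study selected its clones otherwise, by a 1.5-fold difference with Fsh, with or without trilostane, and 1 joint test of both comparisons. A joint F test of that kind in limma gave adjusted p-values from 0.000487 to 0.00295 for *ccne1*, *e2f4*, *ing4* and *ccng1*. These were adjusted only over the clones past the 1.5-fold filter, which rests on the same differences. They therefore run small and cannot be set beside the other adjusted p-values given here. *mcm7* did not reach that fold here. Ctrl replicate 4 had an extreme score on the first principal component (-31.7). The labels give all 6 Ctrl arrays as maturity stage I-II, but only 3 of 6 Fsh, 4 of 6 Tri, 2 of 6 Fsh+Tri and 1 of 3 T0 arrays. Of the 27 arrays, 5 were read with a newer version of the image software (Ctrl 3, Fsh 3, Tri 1, Tri 3 and T0 1).

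Fsh alone was accompanied by less *ing4* and more *ccng1*. *ing4* was 1.82-fold lower in Fsh than in Ctrl explants, and *ccng1* was 1.55-fold higher. *ccne1* and *mcm7* had lower means in Fsh, by a factor of 1.51 and 1.29, but did not pass the test, and *e2f4* had nearly the same mean in both. Thus 2 of the 5 clones were called, where 2.17% of all clones tested were (1.8% higher and 0.372% lower). In bulk tissue, fewer cells of a type and less RNA per cell cannot be told apart.

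The signal of *ing4* spanned 6.48 to 7.80 in Fsh explants (median 6.89) and 7.41 to 8.69 in Ctrl explants (median 7.79). The ranges overlapped through 1 Fsh array, replicate 1 at 7.80, and the other 5 Fsh arrays lay below every Ctrl array. The log2 difference was -0.86 (standard error 0.21, adjusted p = 0.0219 in limma). *ccng1* spanned 7.23 to 8.29 in Fsh (median 7.36) and 6.57 to 7.33 in Ctrl (median 6.86). Of the Fsh arrays, 4 lay above every Ctrl array, and the highest, replicate 3 at 8.29, stood far above the next at 7.46. The difference was 0.63 (standard error 0.16, adjusted p = 0.0311). Both calls depended on single arrays: the adjusted p in limma was 0.0575 for *ing4* and 0.0829 for *ccng1* without Ctrl 1, 0.0511 for each without Ctrl 4, 0.0709 and 0.0895 without Fsh 3, and *ing4* had 0.0650 without Fsh 5. Between arrays of stage I-II alone, 3 with Fsh and 6 of Ctrl, the differences were -1.07 and 0.80, with adjusted p-values of 0.0690 and 0.0955.

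*ccne1* spanned 9.52 to 10.52 in Fsh (median 10.04) and 9.73 to 11.10 in Ctrl (median 10.61). All 6 Fsh arrays lay below the Ctrl mean, and the lowest Ctrl value was that of replicate 4, at 9.73, where the next was 10.53. With all arrays the difference was -0.60 (standard error 0.18, adjusted p = 0.0830 in limma). It was -0.77 with an adjusted p of 0.00376 without Ctrl 4, and -0.70 with 0.0315 without Fsh 1. *mcm7* spanned 6.47 to 7.33 in Fsh (median 7.19) and 7.04 to 7.89 in Ctrl (median 7.46). The difference of *mcm7* was -0.37 (standard error 0.15, adjusted p = 0.232), with 1 Fsh array, replicate 4, below every Ctrl array. It was -0.24 with stage as a covariate, -0.23 among stage I-II arrays alone and -0.21 on the scanner signal without the correction for spotted cDNA. For *e2f4* the ranges were 6.81 to 7.51 in Fsh and 6.69 to 7.63 in Ctrl, and the difference of 0.05 had a 95% confidence interval of -0.25 to 0.36. The median log2 difference of the 5 clones was -0.37, and that of all clones tested was -0.04.

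**Figure D1:**
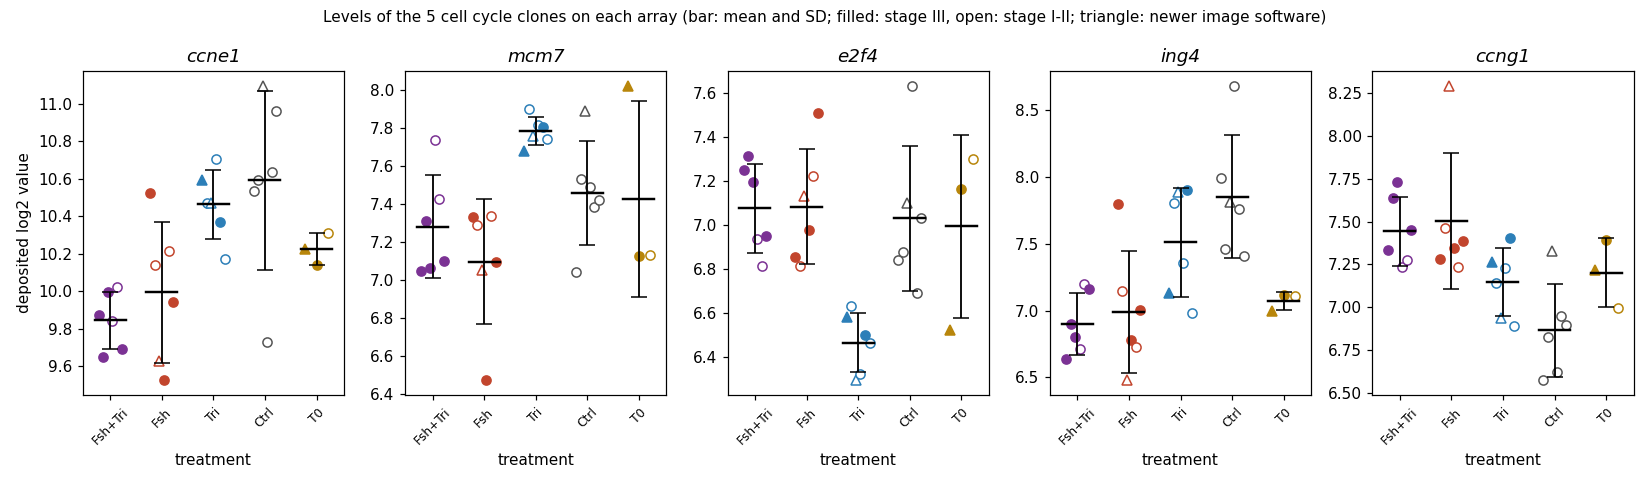
Deposited log2 value (vertical axis) of each clone on each array, by treatment, with bars for mean and SD (n = 6, and 3 for T0). Filled points are stage III arrays, open points stage I-II arrays, and triangles arrays read with the newer image software; the 6 Tri arrays of *e2f4* lie between 6.29 and 6.63, below all Fsh+Tri, Fsh and Ctrl arrays.

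In the presence of trilostane, the means of *ccne1*, *ing4* and *mcm7* were lower with Fsh and those of *e2f4* and *ccng1* higher, but 0 of the 5 clones passed over all clones, where 0.35% of those tested did. At an unadjusted p under 0.05, 4 of the 5 and 516 of 4565 clones would have passed. *ccne1* was 1.54-fold lower in Fsh+Tri than in Tri, *ing4* 1.53-fold lower and *mcm7* 1.42-fold lower on average, whereas the mean of *e2f4* was 1.53-fold higher and that of *ccng1* 1.23-fold higher.

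The groups did not overlap at all in *ccne1* and in *e2f4*, 2 of the 5 clones, as in 1.8% of all clones with a value on every array. *ccne1* spanned 9.65 to 10.02 in Fsh+Tri (median 9.86) and 10.17 to 10.70 in Tri (median 10.47). Every Fsh+Tri array was below every Tri array, with a difference of -0.62 (standard error 0.18, unadjusted p = 0.00176, adjusted p = 0.141 in limma). *e2f4* spanned 6.81 to 7.31 in Fsh+Tri (median 7.07) and 6.29 to 6.63 in Tri (median 6.48). Here every Fsh+Tri array was above every Tri array, and the difference was 0.61 (standard error 0.15, unadjusted p = 0.000265, adjusted p = 0.0567). Without Ctrl 4, which enters only the shared estimate of the spread, both clones were called, with adjusted p-values of 0.0331 for *ccne1* and 0.0144 for *e2f4*, and *e2f4* was called without Fsh+Tri 5, with 0.0447. On the scanner signal without the correction for spotted cDNA, *e2f4* differed by only 0.24 (adjusted p = 0.652) and *mcm7* by -0.25 (adjusted p = 0.631), and these clones had the lowest correlations of scanner with deposited values over the 27 arrays, 0.56 and 0.62.

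*mcm7* spanned 7.05 to 7.74 in Fsh+Tri (median 7.20) and 7.68 to 7.90 in Tri (median 7.78). The 6 Tri arrays were close together, and 5 of 6 Fsh+Tri arrays lay below all of them, with replicate 4 at 7.74 as the exception. The difference of *mcm7* was -0.50 (standard error 0.15, adjusted p = 0.157 in limma). Among stage I-II arrays alone, 2 of Fsh+Tri and 4 of Tri, it was -0.22. *ing4* spanned 6.64 to 7.20 in Fsh+Tri (median 6.85) and 6.99 to 7.91 in Tri (median 7.58). Its difference was -0.61 (standard error 0.21, adjusted p = 0.274), with 4 Fsh+Tri arrays below every Tri array. *ccng1* spanned 7.24 to 7.73 in Fsh+Tri and 6.89 to 7.40 in Tri, and the difference of 0.30 had a 95% confidence interval of -0.03 to 0.63.

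Trilostane without Fsh was accompanied by a lower mean of *e2f4* and a higher mean of *mcm7*, though 0 of the 5 clones passed over all clones, where 0.57% did. At an unadjusted p under 0.05 these 2 and 425 of all clones would have passed. *e2f4* lay between 6.29 and 6.63 in Tri and between 6.69 and 7.63 in Ctrl (median 6.95), so that every Tri array was below every Ctrl array, as for 0.733% of the clones with a value on every array in either direction. Arrays of both groups entered the study's selection of this clone, so the difference is not independent of it. The *e2f4* difference was -0.56 (standard error 0.15, unadjusted p = 0.000625, adjusted p = 0.0824 in limma), a 1.48-fold lower mean in Tri. Without Ctrl 5, the lowest Ctrl array, it was -0.63 with an adjusted p of 0.0497, and without Ctrl 4, the highest at 7.63, it was -0.44. *mcm7* was 1.25-fold higher on average in Tri, by 0.32 (standard error 0.15, adjusted p = 0.511), with all 6 Tri arrays above the Ctrl mean. The differences of the other clones were -0.13 for *ccne1*, -0.34 for *ing4* and 0.28 for *ccng1*, with adjusted p-values of 0.887, 0.640 and 0.616. Single arrays weighed on these means: *ccne1* was -0.30 and *ing4* -0.18 without Ctrl 4, and *ccne1* was -0.027 without Ctrl 3.

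**Figure D2:**
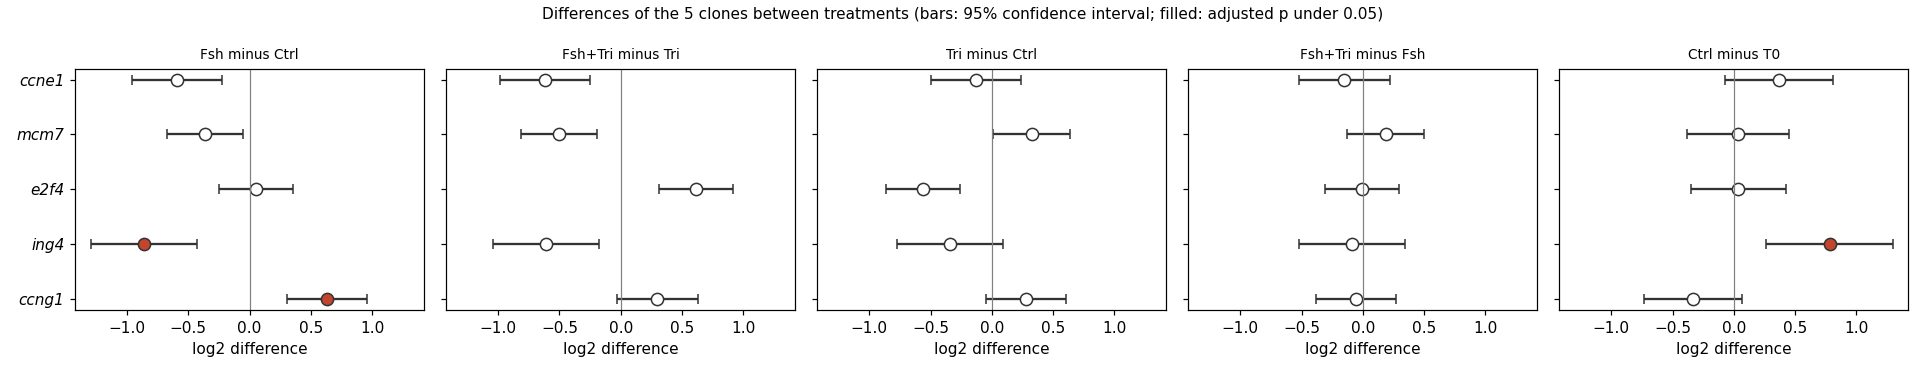
Log2 difference (horizontal axis) of each clone in 5 comparisons of treatments, with the 95% confidence interval; filled points have an adjusted p under 0.05 in limma. *ing4* and *ccng1* are filled for Fsh minus Ctrl (-0.86 and 0.63) and *ing4* for Ctrl minus T0 (0.78).

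With trilostane added to Fsh, the 5 means differed little from those with Fsh alone, but the confidence intervals reach -0.52 and 0.50. The log2 differences between Fsh+Tri and Fsh were -0.15 for *ccne1* (95% confidence interval -0.52 to 0.22), 0.19 for *mcm7* (-0.13 to 0.50), -0.01 for *e2f4* (-0.31 to 0.29), -0.09 for *ing4* (-0.52 to 0.34) and -0.06 for *ccng1* (-0.39 to 0.27). Of the 5 clones 0 were called in limma and 0 had an unadjusted p under 0.05, whereas 1.45% of all clones were called and 441 had an unadjusted p under 0.05. Among stage I-II arrays alone, 2 of Fsh+Tri and 3 of Fsh, the differences included -0.41 for *ccng1*, 0.36 for *mcm7*, -0.18 for *e2f4* and 0.17 for *ing4*.

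The response to Fsh with trilostane was set against that without in 1 test of their difference. It was largest for *e2f4*, whose responses were 0.61 with and 0.05 without trilostane, a difference of 0.56 (standard error 0.21, unadjusted p = 0.0123, adjusted p = 0.557 in limma). On these values *e2f4* reached the 1.5-fold difference of the study's filter only with trilostane (1.53-fold, against 1.04-fold without). A gap between its responses is therefore not independent of that selection. Over 35 alternatives the gap lay between 0.27 and 0.64. For *ccng1* the responses were 0.30 and 0.63, and their difference of -0.33 had a 95% confidence interval of -0.80 to 0.13 and was -0.18 without Fsh 3. For *ing4* the responses of -0.61 and -0.86 differed by 0.25 (-0.36 to 0.87). The responses of *ccne1* (-0.62 and -0.60) differed by -0.02 (-0.54 to 0.50), and those of *mcm7* (-0.50 and -0.37) by -0.14 (-0.58 to 0.30). Of the 5 clones 0 passed over all clones, where 0.0657% did, and 359 clones, *e2f4* among them, had an unadjusted p under 0.05.

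Over the 5 groups, *ccne1* and *ing4* had the same order of means, and both were highest in Ctrl, followed by Tri, T0, Fsh and Fsh+Tri. The means of *ccne1* were 9.85 ± 0.15 in Fsh+Tri, 10.00 ± 0.38 in Fsh, 10.46 ± 0.18 in Tri, 10.59 ± 0.48 in Ctrl and 10.22 ± 0.08 in T0 (SD, n = 6, and 3 for T0). Those of *ing4* were 6.90 ± 0.23 in Fsh+Tri, 6.99 ± 0.46 in Fsh, 7.51 ± 0.41 in Tri, 7.85 ± 0.46 in Ctrl and 7.07 ± 0.07 in T0. The order of *ccng1* was the reverse, apart from the places of Fsh+Tri and Fsh, with 7.44 ± 0.20 in Fsh+Tri, 7.50 ± 0.40 in Fsh, 7.15 ± 0.20 in Tri, 6.87 ± 0.27 in Ctrl and 7.20 ± 0.20 in T0. *mcm7* was highest in Tri, with means of 7.28 ± 0.27 in Fsh+Tri, 7.09 ± 0.33 in Fsh, 7.78 ± 0.07 in Tri, 7.46 ± 0.27 in Ctrl and 7.43 ± 0.52 in T0.

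The means of *e2f4* were nearly level at 7.07 ± 0.20 in Fsh+Tri, 7.08 ± 0.26 in Fsh, 7.03 ± 0.33 in Ctrl and 6.99 ± 0.42 in T0, and only Tri stood lower, at 6.46 ± 0.14. Neighbours in these orders overlapped in all 20 cases and, with 1 exception, did not differ beyond their spread (adjusted p of 0.229 or more in limma). The exception was *e2f4*, 0.53 lower in Tri than in T0 (standard error 0.19, adjusted p = 0.0414), in a comparison in which 23.7% of clones were called. Its 3 T0 arrays held 6.52, 7.16 and 7.30, and the lowest, T0 1, lay within the range of Tri. That call was lost without Tri 3 (adjusted p = 0.0736), Tri 4 (0.0703), Tri 5 (0.0528), Tri 6 (0.0572), T0 2 (0.160) or T0 3 (0.245), with no filter on the mean level (0.0641) and with stage as a covariate (0.0614).

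Culture without added hormone went with more *ing4* and with no call for the others. The Ctrl arrays entered the study's selection of *ing4*, so its difference from T0 is not independent of that selection. *ing4* lay between 7.41 and 8.69 in Ctrl and at 6.995, 7.11 and 7.11 on the 3 T0 arrays. Every Ctrl array was above every T0 array, as for 17.1% of the clones with a value on every array in either direction, and the difference of 0.78 (standard error 0.25, adjusted p = 0.0253 in limma) is a 1.72-fold higher mean in Ctrl. This was 1 of 5 clones called, where 21.7% of the 4883 clones tested over the 27 arrays were. The call was lost without Ctrl 4 (adjusted p = 0.0550), where *ccne1* was gained (0.54, adjusted p = 0.0324), and without T0 1, T0 2 or T0 3 (0.0866, 0.0552 and 0.0575). With the replicate number as a block, *ing4* had an adjusted p of 0.0502. With array weights its call was lost as well (0.0548) and *ccne1* was gained (0.0481).

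Markers of testis cell types, described at the end, moved between Ctrl and T0 too, where 21.7% of all clones tested were called, and their part in the difference of *ing4* was not tested. Of the 4 Sertoli cell clones, 3 were lower and 1 higher in Ctrl than in T0, with summed linear signals of 835 to 2696 in Ctrl and 6435 to 7153 in T0. That sum follows *amh* and *inha*, whose T0 means were 11.59 and 11.57, against 8.32 for *dmrt1* and 8.31 for *cldn11*. The Leydig cell clone *hsd3b1* differed by -1.96 (adjusted p = 1.21e-09 in limma). Of the 6 clones picked for a germ cell profile, *angptl7* was higher (1.17), and *fosl2* (-1.48) and *eftud1* (-0.67) were lower. The sums of the 6 were 1523 to 2045 in Ctrl and 1521 to 2110 in T0. Of 3 clones of antigen-presenting cells, 0 were called.

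*ccne1* was 0.37 higher in Ctrl than in T0 (adjusted p = 0.246 in limma), and *ccng1* 0.34 lower on average (adjusted p = 0.243), with 5 of 6 Ctrl arrays beyond every T0 array for each. *mcm7* and *e2f4* differed by 0.03 and 0.04. The *mcm7* values in T0 were 8.03, 7.12 and 7.13, the first from the array read with the newer software. Between Fsh and T0, 0 of the 5 clones were called, where 25.4% of all clones were. The differences there were -0.23 for *ccne1*, -0.33 for *mcm7*, 0.09 for *e2f4*, -0.08 for *ing4* and 0.30 for *ccng1*, with unadjusted p-values from 0.114 to 0.743. Without T0 1, the array with the high *mcm7* value, *mcm7* was -0.032, and without Fsh 3 *ccng1* was 0.14. For *ing4*, the 6 Fsh arrays lay on both sides of the T0 values, 4 of them below the T0 mean of 7.07.

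Between stage III and stage I-II arrays of the same treatment, 0 of the 5 clones and 0 of the 4565 tested were called in limma (0%), and 418 had an unadjusted p under 0.05. The labels give 1 stage per array, although the methods describe wells that held explants of both stages. The stage difference was largest for *mcm7*, 0.26 lower in stage III (standard error 0.12, unadjusted p = 0.0426, adjusted p = 0.532). For the others it lay between -0.03 for *ccne1* and 0.15 for *e2f4*.

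The plot of adjusted p by setting shows how close the calls were to the threshold. For Fsh minus Ctrl, 7 of 36 alternative settings ended the call of *ing4* and 8 that of *ccng1*, and 3 added *ccne1*. For Fsh+Tri minus Tri, 5 settings added *e2f4*, 3 added *ccne1*, and 1, with arrays weighted by their quality, added *mcm7* and *ing4* as well.

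**Figure D3:**
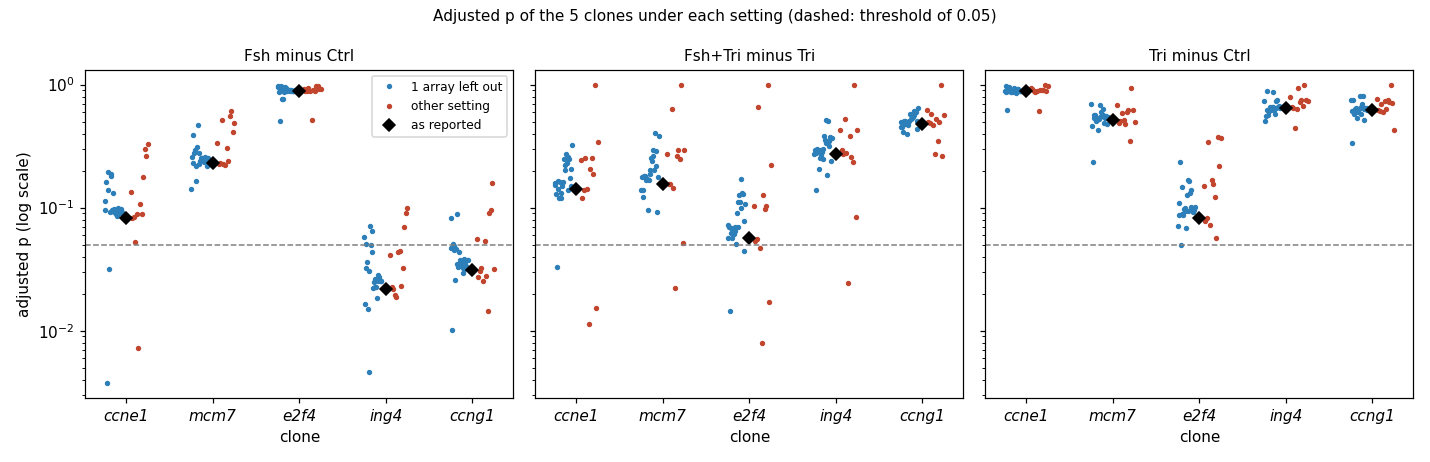
Adjusted p in limma (log scale) of each clone under each setting, for 3 comparisons. Black diamonds are the values reported, blue points leave out 1 array, red points are the other settings, and the dashed line is the threshold of 0.05; *ing4* and *ccng1* lie on both sides of it for Fsh minus Ctrl.

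Between wells of 1 treatment, no correlation among the 5 clones passed the test. Of the 10 pairs, 0 passed on the deviations from treatment means over the 24 cultured arrays, by 2-sided permutation within treatments with adjustment over the pairs, and 0 had an unadjusted p under 0.05. The largest correlation was between *ccne1* and *mcm7* (Pearson's r = 0.43, permutation p = 0.0800, adjusted 0.562, and Spearman's rho = 0.42, permutation p = 0.0645, adjusted 0.645). Within single treatments r was 0.83 in Fsh, 0.30 in Ctrl, 0.08 in Tri and 0.04 in Fsh+Tri. In Fsh, replicate 4 had the lowest value of both clones. The r over all treatments was 0.54 without the 2 arrays farthest from the median of *ccne1* and 0.36 within the 20 arrays of the older software. *ccne1* and *e2f4* had r = -0.43 (permutation p = 0.112, adjusted 0.562) and rho = -0.26 (permutation p = 0.262, adjusted 0.766). That relation rested on 2 arrays, since r was -0.04 without them. The other 8 pairs had r between -0.30 and 0.17.

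Across the 24 arrays, which share the treatments, the named clones most like the 5 were partly shared, with *mhc2dab*, an MHC class II chain, among those of *ccne1* and *mcm7*, and *fcf1* among those of *mcm7* and *ing4*. The study selected all named clones for a response to Fsh, so their likeness is not independent of that selection. *ccng1* was most like *fasn*, the fatty acid synthase (r = 0.85), and *rhobtb3* (r = 0.81), the closest of all 4564 other clones tested, and then an *acot11*-like clone (r = 0.78). For the other members, unnamed clones were closer. Of the named clones, *ing4* was most like *cenpa*, the histone variant of the centromere (r = 0.70), then *pol* (r = 0.62) and *fcf1* (r = 0.53). These ranked 20, 57 and 164 among all 4564. *ccne1* was most like *des*, desmin (r = 0.78, rank 6), *nfkb1* (r = 0.78, rank 7) and *mhc2dab* (r = 0.68, rank 47). Named clones like *mcm7* included *fcf1* (r = 0.75, rank 19) and *mhc2dab* (r = 0.74, rank 20). *e2f4* was most like a pair of keratin *krt12* clones (r = 0.76 and 0.60, ranks 4 and 73) and the protease *mmp19* (r = 0.61, rank 66).

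Of 9 other named clones linked by annotation to growth and division, 5 were higher and 1 lower in Fsh than in Ctrl by limma, with a median log2 difference of 0.62, where 1.8% of all clones tested were higher and 0.372% lower. These clones too were selected by the study for a response to Fsh, so their count is not independent evidence of it. The higher ones were *cth*, an enzyme of cysteine synthesis (1.40), *tpd52l1* (0.75), the Fos family factor *fosl2* (0.74), *wisp1*, a matrix signalling protein (0.68), and *odc1*, the first enzyme of polyamine synthesis (0.62), and the lower one was the proteasome subunit *psma4* (-0.71). The count fell to 1 among stage I-II arrays and to 3 when only Fsh and Ctrl arrays were fitted. *cenpa*, the kinetochore clone of this list, differed by -0.40 between Fsh and Ctrl (adjusted p = 0.262) and by -0.59 between Fsh+Tri and Tri (adjusted p = 0.151).

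With trilostane 0 of the 9 passed for Fsh+Tri minus Tri, where their median was 0.32 and 0.35% of all clones passed, and 3 of the 9 passed with array weights. Between Fsh+Tri and Fsh, *cth* was lower (-1.04) and *inhba*, a subunit of activin, higher (0.75), in a comparison in which 1.45% of all clones were called. The number of the 9 called there lay between 0 and 2 over the 36 alternatives. Between Ctrl and T0, 3 of the 9 were higher and 4 lower, *tpd52l1* by 1.52 and *fosl2* by -1.48 among them, where 21.7% of all clones were called. The reference gene *rps15* differed by 0.06 between Fsh and Ctrl (adjusted p = 0.871) and by -0.08 between Fsh+Tri and Tri (adjusted p = 0.865).

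**Figure D4:**
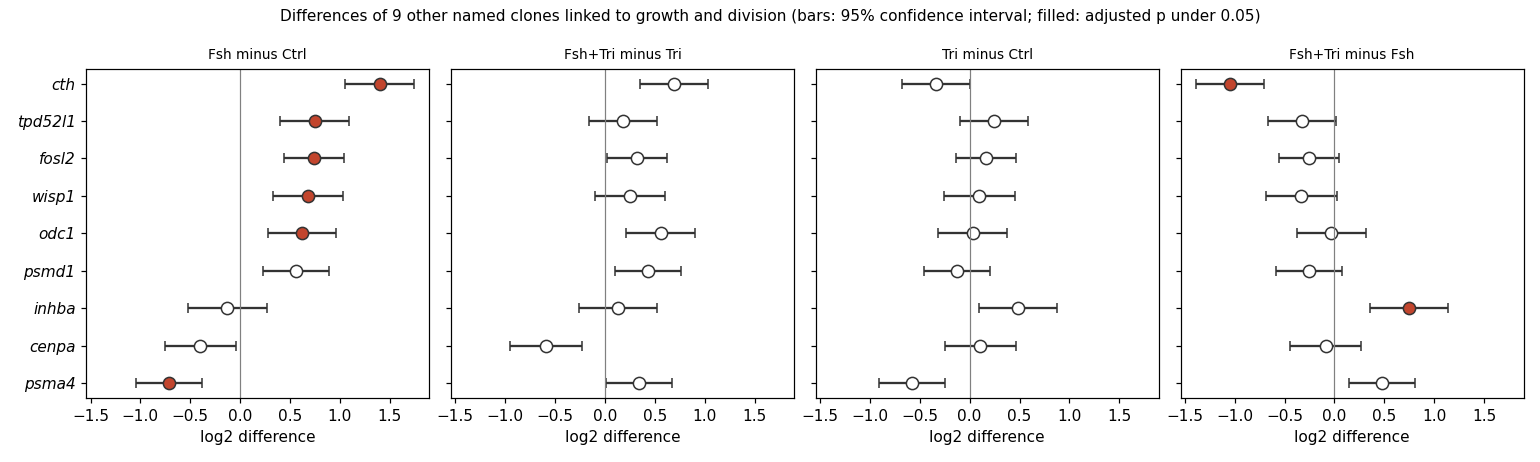
Log2 difference (horizontal axis) of 9 other named clones linked to growth and division in 4 comparisons, with the 95% confidence interval; filled points have an adjusted p under 0.05 in limma. Of the 9, 6 are filled for Fsh minus Ctrl, 0 for Fsh+Tri minus Tri and for Tri minus Ctrl, and 2 for Fsh+Tri minus Fsh.

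Markers of testis cell types moved in the same comparison as *ing4* and *ccng1*, and their part in those results was not tested. The paper gives *ccne1* and *ing4* themselves a somatic expression profile in the testis, and lists that of *mcm7* and *ccng1* as not determined. All were picked from the clones that the study selected on these arrays for a response to Fsh, so that their movement with Fsh is a description and no independent evidence. Between Fsh and Ctrl, 1.8% of all clones tested were called higher and 0.372% lower. The germ cell list holds 6 clones picked among those to which the study's annotation gives a germ cell expression profile. An *acot11*-like transcript, to which the study also gives such a profile, is not in it. Of the 6, 5 were called higher in Fsh than in Ctrl and 1 (*cenpa*) was not called. *fosl2* and *cenpa* are also among the 9 clones above. The summed linear signal of the 6 per array ranged from 2467 to 2810 in Fsh and from 1523 to 2045 in Ctrl. Of 4 Sertoli cell clones, 3 were called higher and *amh* was not, with sums of 3532 to 4616 in Fsh and 835 to 2696 in Ctrl. Of 3 clones of antigen-presenting cells, 1 was called higher and 1 lower, with sums of 584 to 682 in Fsh and 471 to 1193 in Ctrl. The Leydig cell clone *hsd3b1* differed by 0.46 (adjusted p = 0.0903 in limma). Every clone of these lists had a value on every array. The sums follow the brightest clones, such as *angptl7* and *eftud1* among those with a germ cell profile (means of 9.82 and 9.69 in Fsh). The 6 with a germ cell profile are not defining markers of germ cells, and such markers were not analysed here.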

How the data were processed

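Rainbow trout testis RNA was hybridized as radiolabelled cDNA to nylon arrays (24 cultured, 3 of day 0). For each array the authors deposited spot intensity from their image software, and for the series 1 table of log2 values. Per their methods, the log2 values are intensities corrected spot by spot with a vector probe that measures spotted cDNA, then quantile normalized. The log2 values were used as deposited, and intensities entered 1 alternative only, with spots matched by number and without the vector signal. The number of arrays limits the precision.

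Control rows (192 of 9216) were left out. Clones with a value on at least 80% of arrays and 1 group mean at or above the median were fitted with limma 3.58.1 in R 4.3.3, with 4 group means over the 24 cultured arrays, 5 over all 27 for comparisons with T0, and treatment plus stage for the stage comparison. Pairs of clones were tested by 1e+05 permutations within treatments (numpy 2.4.6, Python 3.11.15), with Benjamini-Hochberg adjustment and a threshold of 0.05 throughout. Figures were drawn with matplotlib 3.10.9.

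The text names the 5 clones, the 3 annotated clones most like each (1 is not reported here), 9 other clones annotated for growth and division, cell type markers and *rps15*. Members and lists were chosen with earlier results of these data known. Alternatives covered filters, normalization, input, covariates, array weights, the replicate number as a block and leaving out each array. No sequences or genome coordinates were used. Groups and stages come from the sample labels.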

Additional observations from a re-analysis of the deposited data

Results flagged for a closer look

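In 20 groups of 6 arrays examined for a single array far from the others, 2 stood out, where chance gives about 1 in 20. *ccng1* on Fsh replicate 3 was 8.29, where the next Fsh array had 7.46, and this array was read with the newer image software. *mcm7* on Fsh replicate 4 was 6.47, where the next had 7.05. The responses of *e2f4* to Fsh with and without trilostane differed by 0.56, with an unadjusted p of 0.0123 and an adjusted p of 0.557 in limma. This clone reached the 1.5-fold difference of the study's filter only with trilostane, so that gap is not independent of the selection.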

How the results depend on the processing

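Each difference was recomputed under 34 to 39 alternatives, among them the arrays of the older software alone and the settings for *e2f4* in Tri minus T0 and for the 9 other clones, which were chosen after the data were seen. No called difference changed sign, 34 calls were lost and 17 gained of 1494 values, and the cause was not tested. Of the 5 clones, the number called for Fsh minus Ctrl (2) was 1 with no filter on the mean level, with stage as a covariate and with older software arrays only, and 0 with stage I-II arrays only and with only the groups compared. It stayed 2 with array weights, with *ccne1* (adjusted p = 0.0073 in limma) in place of *ccng1* (0.0538). For Fsh+Tri minus Tri (0) it was 1 with a variance trend, 4 with array weights and 2 with only the groups compared. For Ctrl minus T0 (1) it was 2 on scanner intensity, and 0 with the replicate block, stage I-II arrays only, only the groups compared or older software arrays only. It stayed 1 with array weights, with *ccne1* in place of *ing4*. Only 1 of 3 T0 arrays is of stage I-II, so that every value against T0 among stage I-II arrays rests on 1 T0 array, assumed to vary like the other groups. Leaving out 1 array gave 0 to 3 for Fsh minus Ctrl, 0 to 2 for Fsh+Tri minus Tri, 0 to 1 for Tri minus Ctrl and 0 to 1 for Ctrl minus T0. The number of correlated pairs was 0 under all 28 alternatives run.

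Same-numbered arrays of different treatments did not deviate together (36 pairs, r of -0.35 to 0.21), and 1 of 24 arrays correlated best with its own number. With the replicate block, the calls of *ing4* for Ctrl minus T0 (0.79, adjusted p = 0.0502 in limma) and of *e2f4* for Tri minus T0 (-0.54, adjusted p = 0.0686) were lost and no other call of the 5 clones changed.

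In 14 differences that were called in no setting, the sign changed in 52 values. On scanner intensity, *e2f4* was -0.037 for Fsh minus Ctrl, -0.27 for Ctrl minus T0, -0.31 for Fsh minus T0 and -0.10 for stage III minus stage I-II, *ccng1* was -0.0069 for stage, *mcm7* 0.16 and *ing4* 0.30 for Fsh minus T0, and the difference of the responses of *ccne1* was 0.073. With array weights the last was 0.072 and *e2f4* was -0.25 for Ctrl minus T0 and -0.058 for Fsh minus T0. With stage as a covariate, *e2f4* was -0.023 for Fsh minus Ctrl and *mcm7* -0.073 for Ctrl minus T0. With software as a covariate, *ccng1* was 0.0082 for Fsh+Tri minus Fsh and the difference of the responses of *ccne1* 0.0083. With stage I-II arrays only, *ing4* was 0.17 for Fsh+Tri minus Fsh, the differences of the responses were 0.075 for *ccne1* and 0.011 for *mcm7*, *e2f4* was -0.27 for Ctrl minus T0 and -0.24 for Fsh minus T0, and *mcm7* 0.10 for Fsh minus T0. With older software arrays only, *e2f4* was 0.0012 and *ccng1* 0.10 for Fsh+Tri minus Fsh, and *e2f4* was -0.22 for Ctrl minus T0 and -0.16 for Fsh minus T0. Leaving out 1 array, *e2f4* ranged from -0.031 to 0.18 for Fsh minus Ctrl, from -0.062 to 0.077 for Fsh+Tri minus Fsh, from -0.20 to 0.19 for Ctrl minus T0 and from -0.15 to 0.24 for Fsh minus T0. In the same way, *ing4* ranged from -0.19 to 0.075 and *ccng1* from -0.11 to 0.10 for Fsh+Tri minus Fsh, *ing4* from -0.25 to 0.019 for Fsh minus T0, *mcm7* from -0.12 to 0.33 for Ctrl minus T0, and *ccne1* from -0.12 to 0.15 for the difference of the responses and from -0.12 to 0.037 for stage.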
